A study of Mus musculus with 22 samples.

Results

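The mitochondrial fatty acid oxidation enzymes were examined through 10 mouse genes: Cpt1a, Cpt2, Acadm, Acadl, Acadvl, Hadha, Hadhb, Hadh, Acaa2 and Etfa. The genes were chosen by name, with earlier results of these data known, and each was represented by 1 probe set. All 10 were among the 19505 genes with a symbol on the array and among the 15545 genes bright enough to be tested. The samples were lung metastases cut out by laser capture microdissection from mice injected through the tail vein with NMuMG cells, a mouse mammary epithelial line. Both injected lines carried ErbB2, a receptor tyrosine kinase oncogene. One also carried PGC-1alpha, and the other a control vector (VC). Mice of each line were given PBS as the control treatment, or phenformin for 1 week, which gave 5 control arrays and 6 PGC-1alpha arrays for each of PBS and phenformin. Each line stands for 1 injected cell population, so PGC-1alpha cannot be told apart from other differences between the lines. The labels give neither the strain and age of the mice nor the number of animals, so p-values measure the spread between samples.

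Mitochondrial fatty acid oxidation shortens an acyl-CoA by one acetyl-CoA per turn of a cycle of dehydrogenation, hydration, a further dehydrogenation and thiolysis. Long chains first cross the mitochondrial membranes as carnitine esters, and the electrons of the first dehydrogenation pass through the electron transfer flavoprotein to the respiratory chain. Genes of the pathway are textbook targets of the nuclear receptors PPARalpha and ERRalpha, which PGC-1alpha, encoded by Ppargc1a, coactivates. Phenformin is a biguanide that inhibits respiratory complex I.

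In all, 3 upstream stretches are shown because the results below turn on Hadha and Hadhb, which share theirs, and because Acadm and Cpt2 held the matches to a nuclear receptor half-site and to an ETS-type site. Sequences are from RefSeq (GRCm38.p6), which held a window of 300 bases, 250 before to 50 after the start site, for 9 of the 10 genes. Hadha and Hadhb lie head to head on chromosome 5 with start sites 273 bases apart, so their windows had 228 bases in common, all of them between the genes. Those bases (chr5:30155003-30155230, plus strand, the strand of Hadhb) are printed with the GC-box core GGGCGG in capitals, on either strand. For Acadm (chr3:153944644-153944893, minus strand) and Cpt2 (chr4:107923590-107923839, minus strand) the 250 bases before the start site are printed, with AAGGTCA and CCGGAAG, respectively, in capitals on either strand.
Hadha and Hadhb, between the start sites: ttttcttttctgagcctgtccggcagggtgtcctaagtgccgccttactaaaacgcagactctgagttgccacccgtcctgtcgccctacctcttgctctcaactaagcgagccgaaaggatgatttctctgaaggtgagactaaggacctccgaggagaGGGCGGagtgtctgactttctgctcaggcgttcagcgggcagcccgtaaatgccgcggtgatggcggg
Acadm, before the start site: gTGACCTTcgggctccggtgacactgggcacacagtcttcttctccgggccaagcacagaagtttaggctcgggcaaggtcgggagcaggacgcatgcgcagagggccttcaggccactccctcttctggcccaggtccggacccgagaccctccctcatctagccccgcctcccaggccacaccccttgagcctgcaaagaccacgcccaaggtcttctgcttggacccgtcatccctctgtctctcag
Cpt2, before the start site: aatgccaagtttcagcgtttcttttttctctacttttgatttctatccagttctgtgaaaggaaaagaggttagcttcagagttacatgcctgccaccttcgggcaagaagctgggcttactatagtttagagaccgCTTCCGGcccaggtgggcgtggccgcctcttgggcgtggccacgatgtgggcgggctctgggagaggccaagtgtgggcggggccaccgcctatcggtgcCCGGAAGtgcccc
AAGGTCA, the half-site bound by ERRalpha, was present in 1 of the 9 windows (Acadm) and in 4.72% of all 32851 windows in the table. The PPAR-type direct repeat AGGTCANAGGTCA was in 0 of the 9 and in 0.0396% of all windows; its letters can overlap those of the half-site. The ETS-type CCGGAAG was in 1 of the 9 (Cpt2) and in 8.86% of all, and the NRF1-type palindrome GCGCATGCGC in 0 of the 9 and in 0.971% of all. GGGCGG was in 6 of the 9 (Cpt1a, Cpt2, Acadl, Hadha, Hadhb and Hadh) and in 35.7% of all windows. Each search covered both strands. A match is a run of letters, not a bound site.

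Values are log2 array signals normalised by the authors, and signals of different probe sets are not compared. Median log2 signal per array was 6.55 to 6.64, and the median of the negative control probe sets was 4.61 to 5.05. All 10 genes lay above the negative control median on all 22 arrays. Ppargc1a, the gene of PGC-1alpha, had a signal of 7.54 ± 0.60 in the 5 control arrays given PBS (mean and SD) and of 8.04 ± 0.39 in the 5 given phenformin. In the injected PGC-1alpha line it was 8.90 ± 0.37 without and 8.64 ± 0.79 with phenformin (6 arrays each). The 10 measured epithelial markers (Krt8, Krt18, Epcam and others) lay above the negative controls in every group, and so did the 11 alveolar type 2 markers, so the captured tissue carried lung transcripts too. In captured tissue, fewer cells of a type and less RNA per cell cannot be told apart. The array control phenformin 3 had a summed cardiac muscle marker level of 12.35 on the log2 scale, where the other 21 arrays had 10.14 to 11.03. Cardiac muscle is rich in fatty acid oxidation enzymes, and values without this array are given for several of the results below.

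**Figure D1:**
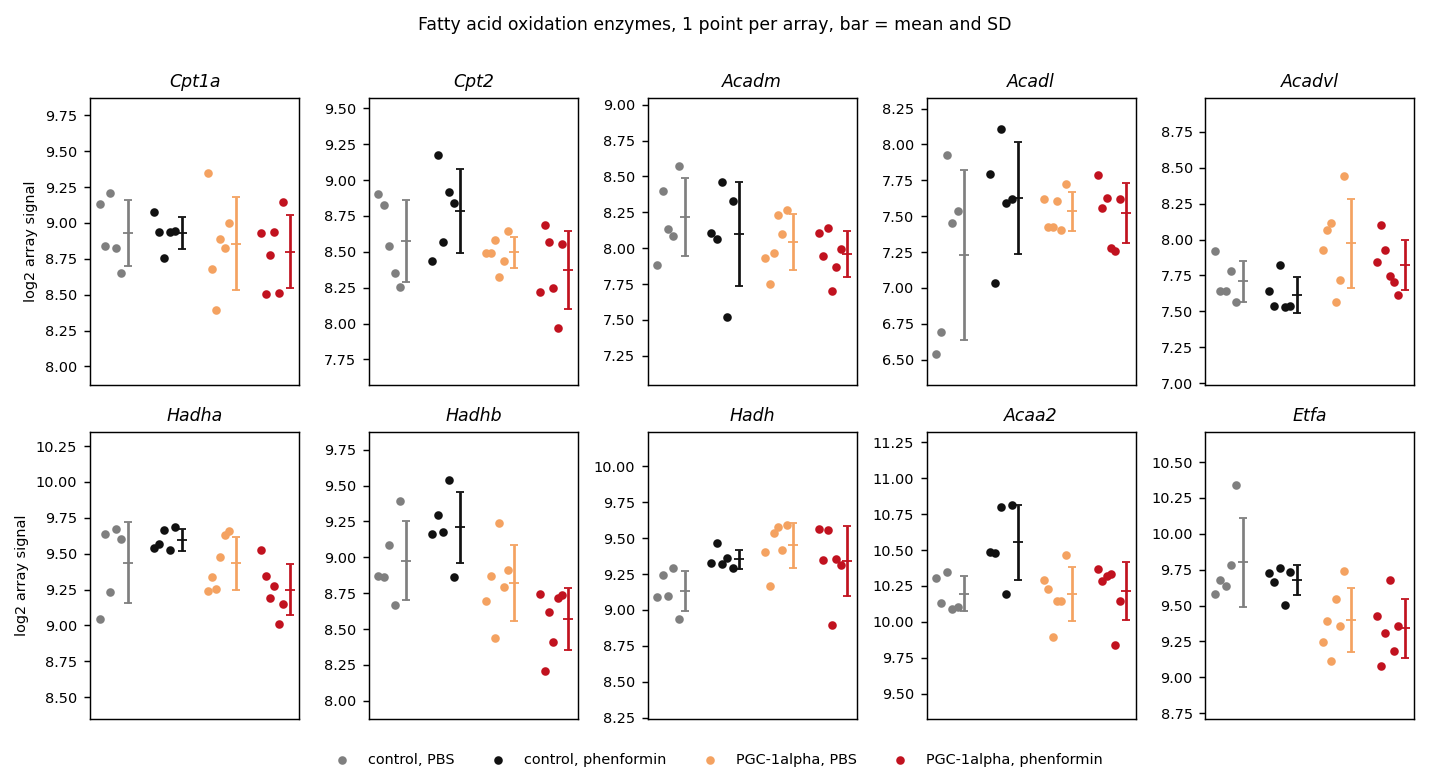
Log2 array signal (vertical axis, the same span of 2 log2 units in each panel) of the 10 genes in the 4 groups, 1 point per array, with the group mean and SD as a bar beside the points. For Hadhb under phenformin, the control arrays lie at 8.86 or above and the PGC-1alpha arrays at 8.75 or below; for Hadha both groups meet at 9.52.

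Of these enzymes, Hadha and Hadhb were lower in PGC-1alpha than in control metastases under phenformin, and Hadhb and Etfa were lower when both treatments were averaged. Each time 2 of 10 passed, beside 21.1% of all tested genes under phenformin and 24.6% in the average, in either direction. Among other genes in the same signal range, 18.2% passed as lower under phenformin. Hadha was at the edge of the threshold, and lost its call after renormalisation and in most fits that left out a single array. The averaged calls were lost with an immune or a lung marker score as covariate, and Hadhb under phenformin with the immune score. None of the 10 enzyme genes passed as higher in PGC-1alpha metastases on the deposited scale with all arrays. Acadvl and Hadh did in the average once the arrays were renormalised, or with certain single arrays left out. The genes are described in the order in which their proteins act. Differences are PGC-1alpha minus control on the log2 scale unless stated otherwise, with limma p-values adjusted over all tested genes.

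Carnitine entry depends on Cpt1a, the rate-limiting acyltransferase of the outer mitochondrial membrane, and on Cpt2, which regenerates acyl-CoA inside. Cpt1a lay between 8.39 and 9.35 over all arrays, with group means of 8.93 ± 0.23 (control, PBS, n = 5), 8.93 ± 0.11 (control, phenformin, n = 5), 8.86 ± 0.32 (PGC-1alpha, PBS, n = 6) and 8.80 ± 0.26 (PGC-1alpha, phenformin, n = 6). None of its differences passed, and the 95% interval of the line difference under PBS ran from −0.38 to 0.23. Cpt2 read 8.44, 9.17, 8.57, 8.91 and 8.84 in control arrays under phenformin, and 7.97, 8.40 and 8.69 as the lowest, median and highest in PGC-1alpha arrays. The difference of −0.41 (SE 0.15) lay just outside the threshold (limma, adjusted p = 0.051), and 2 of the 5 control arrays fell inside the PGC-1alpha range. It passed without the array with cardiac markers (−0.47, limma adjusted p = 0.0421), and without 4 others of the 22 when each was left out in turn (PGC-1alpha phenformin 2, control phenformin 1, control PBS 1 and control PBS 5). Under PBS the control arrays spanned 8.26 to 8.90 and enclosed all PGC-1alpha arrays, at 8.33 to 8.64, and Cpt2 had −0.08 (SE 0.15, limma adjusted p = 0.823).

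The acyl-CoA dehydrogenases catalyse the first step for chains of falling length: Acadvl for very long, Acadl for long and Acadm for medium chains. None of the 3 passed in any comparison of the lines or of treatment. Acadvl was the member with positive line differences under both treatments, 0.27 (SE 0.13, limma adjusted p = 0.287) under PBS and 0.21 (SE 0.13, limma adjusted p = 0.246) under phenformin. Its averaged difference was 0.24 (SE 0.09, limma adjusted p = 0.0614). It passed as higher in 4 fits that left out 1 array: without PGC-1alpha PBS 4 (0.28, limma adjusted p = 0.0224), PGC-1alpha PBS 5 (0.26, limma adjusted p = 0.044), control PBS 1 (0.26, limma adjusted p = 0.0411) and the array with cardiac markers (0.26, limma adjusted p = 0.0458). The PGC-1alpha arrays under PBS ranged from 7.57 to 8.44 and the control arrays from 7.56 to 7.92, so the control arrays lay within the lower part of the PGC-1alpha range or just below it.

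Acadl varied most within a group. Its control arrays under PBS read 6.54, 6.69, 7.93, 7.45 and 7.54 (SD 0.59), while the 6 PGC-1alpha arrays under PBS lay between 7.41 and 7.72 (SD 0.13). The line difference was 0.30 (SE 0.20, limma adjusted p = 0.458), with a 95% interval from −0.12 to 0.72. Under phenformin it was −0.11 (SE 0.20, limma adjusted p = 0.727), and 0.01 without the array with cardiac markers, which had the highest Acadl value of all, 8.11. Acadm, the classical PPARalpha and ERRalpha target whose upstream half-site is shown above, had group means of 8.22 ± 0.27 and 8.04 ± 0.20 under PBS (control, n = 5, and PGC-1alpha, n = 6), and 8.10 ± 0.36 and 7.96 ± 0.16 under phenformin. The line differences were −0.17 (SE 0.15, limma adjusted p = 0.584) and −0.14 (SE 0.15, limma adjusted p = 0.536).

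Transcripts of both subunits of the mitochondrial trifunctional protein were lower in PGC-1alpha than in control metastases under phenformin. Hadha encodes the alpha subunit, which carries the hydratase and the long-chain hydroxyacyl-CoA dehydrogenase activity, and Hadhb the beta subunit, which carries the thiolase. Under phenformin Hadhb read 9.16, 9.30, 9.18, 9.54 and 8.86 in control arrays 1 to 5. In the 6 PGC-1alpha arrays its lowest, median and highest log2 signals were 8.21, 8.67 and 8.75. The groups did not overlap: the lowest control array, number 5, stood above every PGC-1alpha array. Such a gap with the control arrays on top was seen for 4.94% of all tested genes. Hadhb fell by 0.64 on the log2 scale (SE 0.15), a 1.56-fold lower signal (limma, adjusted p = 0.00681 over all tested genes). Without the array with cardiac markers the difference was −0.65 (limma, adjusted p = 0.0114).

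Hadha read 9.54, 9.57, 9.67, 9.52 and 9.69 in control arrays 1 to 5 under phenformin, against 9.01, 9.24 and 9.52 as the lowest, median and highest of the PGC-1alpha arrays. The groups only just failed to overlap, since the lowest control and the highest PGC-1alpha array both rounded to 9.52. Hadha fell by 0.35 (SE 0.12), a 1.27-fold lower signal, at the edge of the threshold (limma, adjusted p = 0.0487). The call was lost when genes below the brightness filter were also tested (limma, adjusted p = 0.0568), and in 15 of the 22 fits that each left out 1 array. Without the array with cardiac markers it was −0.33 (limma, adjusted p = 0.0835).

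Under PBS neither subunit passed. Hadhb read 8.87, 8.87, 9.09, 8.67 and 9.39 in control arrays and had a lowest, median and highest of 8.44, 8.83 and 9.24 in PGC-1alpha arrays, a difference of −0.15 (SE 0.15, limma adjusted p = 0.634). Hadha read 9.04, 9.64, 9.23, 9.67 and 9.60 against 9.24, 9.41 and 9.65, a difference of −0.004 (SE 0.12, limma adjusted p = 0.99). Both genes overlapped between the lines, and the control arrays of Hadha split into 2 at or below 9.23 and 3 at or above 9.60. The line difference under phenformin minus that under PBS was −0.48 (SE 0.21) for Hadhb and −0.34 (SE 0.18) for Hadha, and neither passed as an interaction (limma, adjusted p = 0.404 and 0.471). Averaged over both treatments Hadhb was lower in PGC-1alpha metastases by a log2 difference of −0.40 (SE 0.11, limma adjusted p = 0.00994), and Hadha had −0.18 (SE 0.09, limma adjusted p = 0.141; −0.22 and 0.0446 without control PBS 1). The deviations of Hadha and Hadhb from the group means over the 22 arrays had a Pearson correlation of 0.02 and a Spearman correlation of −0.04. These are given as a description, since the arrays share the normalisation. Shared control of the genes from their common upstream stretch was not tested.

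Hadh, the dehydrogenase for hydroxyacyl chains of medium and short length, and Acaa2, the mitochondrial ketoacyl-CoA thiolase, act late in the cycle. Hadh read 9.09, 9.25, 9.10, 9.29 and 8.94 in control arrays under PBS, and 9.17, 9.48 and 9.59 as the lowest, median and highest in PGC-1alpha arrays. Of the 6 PGC-1alpha arrays 5 lay above every control array, and the difference was 0.32 (SE 0.11, limma adjusted p = 0.134). Under phenformin the control arrays read 9.33, 9.47, 9.32, 9.36 and 9.29, the lowest of them level with the highest PBS control, and the PGC-1alpha arrays spanned 8.89 to 9.57. The line difference there was −0.01 (SE 0.11, limma adjusted p = 0.951).

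Acaa2 read 10.31, 10.13, 10.35, 10.09 and 10.10 in control arrays under PBS and 10.48, 10.48, 10.80, 10.19 and 10.81 under phenformin. Of the 5 phenformin arrays, 4 lay above every PBS array. The difference of 0.36 (SE 0.13) did not pass over all genes (limma, unadjusted p = 0.0125, adjusted p = 0.386), and was 0.30 (limma, adjusted p = 0.418) without the array with cardiac markers. In PGC-1alpha metastases Acaa2 had 10.19 ± 0.19 under PBS and 10.22 ± 0.20 under phenformin (SD, n = 6 each). The line difference under phenformin was −0.34 (SE 0.13, limma adjusted p = 0.0589), and −0.28 (limma, adjusted p = 0.137) without the array with cardiac markers, one of the 2 highest for this gene. It passed without control phenformin 4 (−0.43, limma adjusted p = 0.0291), with arrays centred on their median (−0.39, limma adjusted p = 0.035) and with a trended robust prior (limma, adjusted p = 0.0435).

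Etfa, the alpha subunit of the electron transfer flavoprotein that accepts electrons from the acyl-CoA dehydrogenases, was lower in PGC-1alpha metastases when the treatments were averaged. Under PBS it read 9.58, 9.68, 9.64, 9.78 and 10.34 in control arrays, and 9.11, 9.37 and 9.74 as the lowest, median and highest in PGC-1alpha arrays. Under phenformin it read 9.73, 9.67, 9.76, 9.51 and 9.73 in control arrays, and 9.08, 9.33 and 9.68 in PGC-1alpha arrays. The medians were lower in the PGC-1alpha line both times, with overlap, and control PBS 5 stood above all other arrays. The averaged difference was −0.37 (SE 0.10), a 1.29-fold lower signal (limma, adjusted p = 0.0085). It was −0.30 without control PBS 5 and still passed (limma, adjusted p = 0.0146). In the single treatments the difference was −0.40 (SE 0.14, limma adjusted p = 0.11) under PBS and −0.34 (SE 0.14, limma adjusted p = 0.0786) under phenformin. The latter passed without PGC-1alpha phenformin 4 (−0.41, limma adjusted p = 0.0422) and without control PBS 5 (limma, adjusted p = 0.0423). The partner subunit gene Etfb was not analysed here. Etfdh, whose enzyme hands the electrons on to ubiquinone, was in the pathway lists below and was not among the genes that passed.

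**Figure D2:**
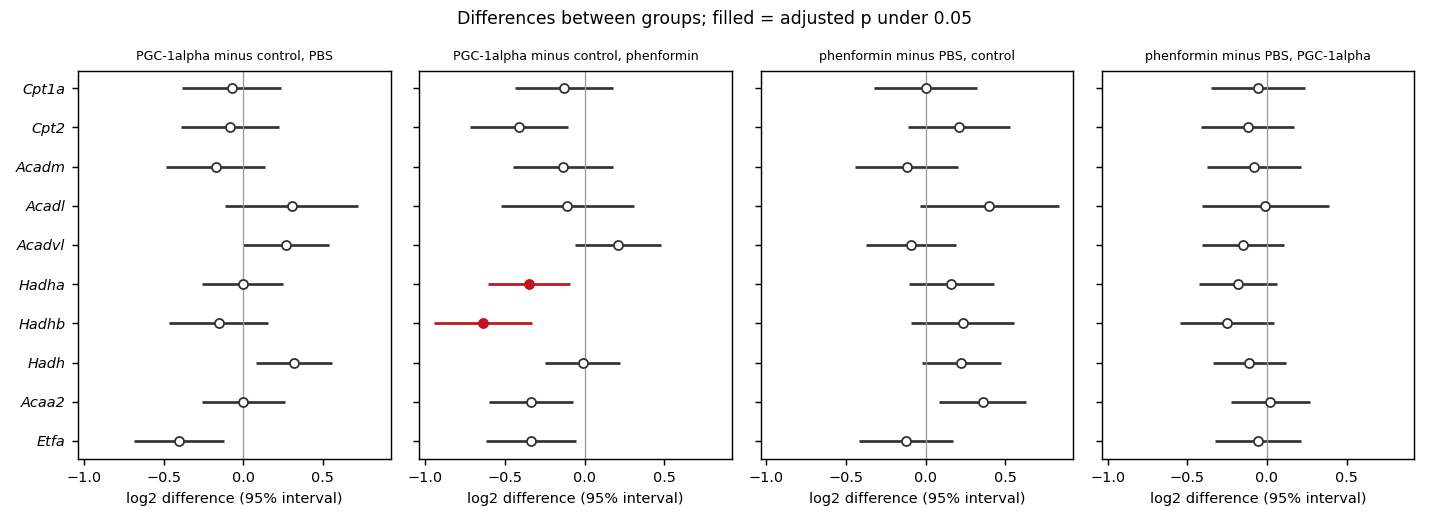
Log2 differences of the 10 genes (horizontal axis) with their 95% intervals, 1 panel per comparison, filled symbols marking an adjusted p under 0.05 in limma over all tested genes. Filled symbols stand only at Hadha and Hadhb, for the lines under phenformin. The average of both treatments is not drawn.

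Across the 10 genes, the comparison of the lines asked whether metastases with added PGC-1alpha differed in oxidation enzyme transcripts. Under PBS 0 of 10 passed in limma and 2 (Hadh and Etfa) had an unadjusted p under 0.05, while 2.93% of all tested genes passed and 18.0% had an unadjusted p under 0.05. The 95% intervals of the 10 differences lay within −0.69 to 0.72. Ppargc1a itself was higher by 1.36 (SE 0.31, limma adjusted p = 0.0198). Under phenformin the Ppargc1a difference was 0.59 and did not pass. Its groups overlapped there, with control phenformin 4 at 8.67 and PGC-1alpha phenformin 6 at 7.65. Under phenformin 2 of 10 passed, both lower, and 5 had an unadjusted p under 0.05, while 21.1% of all tested genes passed, 11.1% lower and 10.0% higher, and 37.1% had an unadjusted p under 0.05. The share of members that passed was near that of all genes. When each array was first centred on its own median, 2203 genes passed as lower and 1112 as higher, instead of 1723 and 1560. In the average of both treatments 2 of 10 passed, both lower, beside 24.6% of all tested genes, 13.3% lower, and 4 had an unadjusted p under 0.05, beside 39.0% of all. Without the array with cardiac markers Hadhb and Etfa still passed as lower in the average, and Acadvl passed as higher. No member was called higher in PGC-1alpha metastases in any of these 3 comparisons with all arrays on the deposited scale. With the arrays renormalised Acadvl and Hadh passed as higher in the average: Acadvl at 0.29 with quantiles (limma, adjusted p = 0.0342) and 0.27 with cyclic loess (limma, adjusted p = 0.0475), and Hadh at 0.25 (limma, adjusted p = 0.0219) and 0.23 (limma, adjusted p = 0.0352).

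The direction of the members was read against genes of like signal. Under phenformin 9 of the 10 differences were below 0, with a median of −0.24, while 50.4% of all tested genes were above 0. Among the 6040 other genes whose mean signal lay in the members' range, 7.48 to 10.28, the median was −0.14, 66.9% were below 0 and 18.2% passed as lower. Under PBS 7 of 10 were below 0 with a median of −0.04, and genes of like signal had a median of −0.02; of all tested genes 50.9% were above 0. Renormalising the arrays by quantiles left 7 of 10 below 0 under phenformin with a median of −0.11, and cyclic loess left 7 of 10 with −0.15. No test was made of the group of 10, and these counts describe it only.

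Some markers of other cells moved with the lines. Of the 7 neutrophil markers tested, 4 were lower in PGC-1alpha metastases under PBS and 5 under phenformin. The shares over all tested genes were 2.93% in either direction under PBS and 11.1% lower under phenformin. Their summed level, on the log2 scale, was 11.38 to 11.70 in controls given PBS, 11.01 to 11.52 in controls given phenformin, 10.42 to 11.27 in the PGC-1alpha line given PBS and 10.22 to 10.79 in that line given phenformin. None of the 7 was at or below the negative controls in the first 3 groups, and 1 was in the last. The 11 alveolar type 2 markers summed to 14.49 to 14.96 over all groups. Under phenformin 2 of them were lower, beside 11.1% of all tested genes. In the average of treatments, 4 of 11 alveolar type 2 markers, 2 of 8 alveolar type 1 markers, 2 of 11 endothelial markers and 5 of 7 neutrophil markers were lower and none of these higher. Over all tested genes 13.3% were lower in that average. The club and ciliated, fibroblast and smooth muscle, B and plasma, adipocyte and erythroid lists each had 1 marker higher and 0 lower. Macrophage markers had 1 higher and 1 lower, T and NK markers 2 lower, and cardiac muscle markers 0 of either. Of the 10 mammary epithelial markers 3 were lower (Krt19, Cdh1 and Cldn7) and 1, Erbb2, was higher by 0.35 (limma, adjusted p = 0.0193). Summed levels spanned 12.55 to 13.44 over all groups for alveolar type 1, 11.28 to 13.05 for endothelial and 13.607 to 13.997 for epithelial markers, and no marker of these 3 lists had a group mean at or below the negative controls. With an immune marker score as a covariate, the line difference of Hadhb under phenformin was −0.52 (limma, adjusted p = 0.066) and that of Hadha −0.24 (limma, adjusted p = 0.279). With a normal lung score they were −0.55 (limma, adjusted p = 0.025) and −0.31 (limma, adjusted p = 0.111). Cpt2 came to pass as lower with the lung score, at −0.53 under phenformin (limma, adjusted p = 0.0216) and −0.42 in the average (limma, adjusted p = 0.0372). The averaged difference of Etfa was −0.32 (limma, adjusted p = 0.144) with the immune score and −0.26 (limma, adjusted p = 0.174) with the lung score, and that of Hadhb −0.28 (limma, adjusted p = 0.231) and −0.27 (limma, adjusted p = 0.192). The median immune score was 0.28 and 0.14 in the control groups and −0.16 and −0.30 in the PGC-1alpha groups, under PBS and phenformin respectively. The median lung score was 0.19 and 0.35 in the control groups and −0.30 and −0.14 in the PGC-1alpha groups, in the same order. Both scores thus differed between the lines, so these fits cannot separate cell content from line. Over all genes, the 3283 calls under phenformin became 847 with the immune score and 2122 with the lung score. The 3831 calls in the average became 729 and 1166. The part of other cells in the member differences was not tested.

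**Figure D3:**
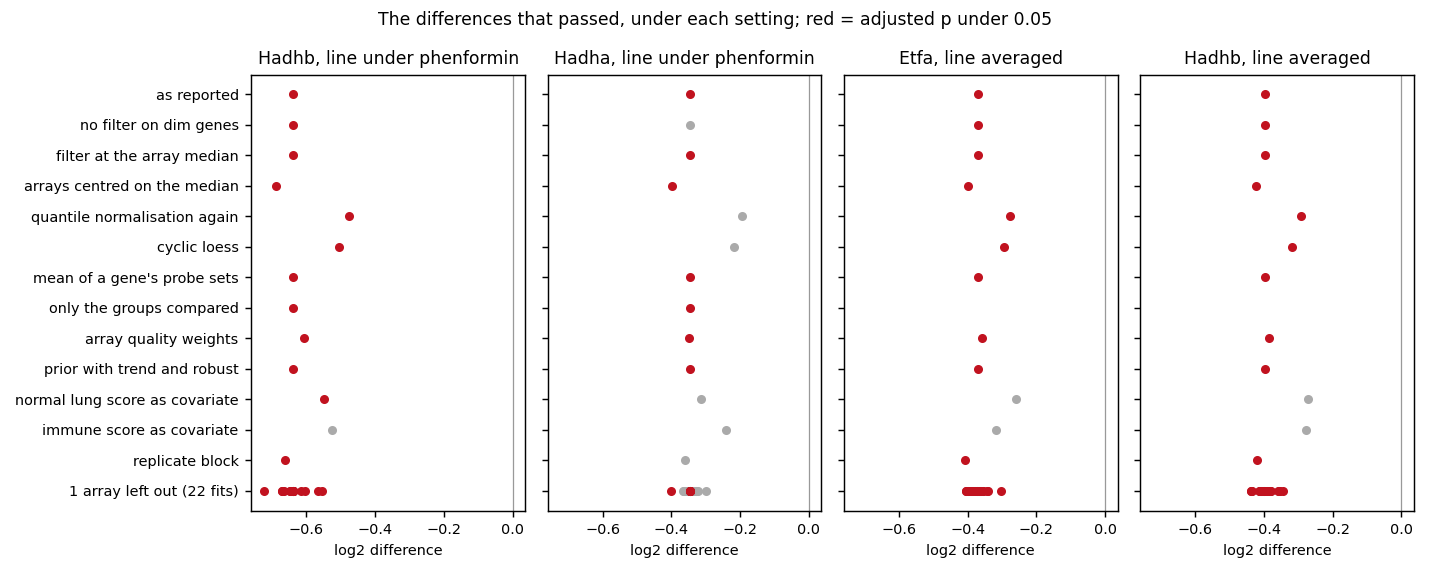
The 4 line differences that passed (horizontal axis, log2 difference) under each setting, red where the adjusted p stayed under 0.05. Hadhb under phenformin stays red except with the immune score as covariate, where it is −0.52, and Hadha turns grey under many settings.

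Phenformin itself was compared with PBS within each line. In control metastases the differences of the 10 genes ran from −0.13 (Etfa) to 0.40 (Acadl; 0.28 without the array with cardiac markers), with a median of 0.18, and in PGC-1alpha metastases from −0.25 (Hadhb) to 0.02 (Acaa2), with a median of −0.10. By limma, 0 of 10 passed in either line, where 1 (Acaa2) and 0 had an unadjusted p under 0.05. The same held for all tested genes, of which 0% passed in either line and 9.64% and 4.34% had an unadjusted p under 0.05. Averaged over the lines, 0 of 10 passed, and Acaa2, at 0.19, alone had an unadjusted p under 0.05 in limma. Of all tested genes 0% passed and 3.96% had an unadjusted p under 0.05. These comparisons share their arrays with those of the lines, so the lower line differences under phenformin and the phenformin differences are not separate observations.

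The interaction, the line difference under phenformin minus that under PBS, was negative for 8 of the 10 genes and had a median of −0.33, where genes of like signal had a median of −0.11 with 68.4% below 0; of all tested genes 48.7% were above 0. None of the 10 passed. The lowest value was that of Hadhb (limma, unadjusted p = 0.032), followed by Acadl at −0.41 (SE 0.29, limma adjusted p = 0.594). Cpt2 had −0.33, Hadh −0.33 and Acaa2 −0.34 (limma, adjusted p = 0.451 to 0.566), and Cpt1a −0.06, Acadvl −0.06, Acadm 0.04 and Etfa 0.07. Over all tested genes 0% passed as an interaction and 11.1% had an unadjusted p under 0.05, so the line difference is not shown to depend on treatment for any member.

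Whether arrays with more Ppargc1a carried more of a member was asked within groups, as a slope in log2 signal per log2 signal of Ppargc1a. The slopes ran from −0.20 (Acadm, SE 0.10, limma adjusted p = 0.812) to 0.13 (Acadvl, SE 0.09, limma adjusted p = 0.846), with a median of 0.03. By limma 0 of 10 passed and 0 had an unadjusted p under 0.05, beside 0% and 6.12% of all tested genes. Acadm, the gene with the half-site upstream, had the lowest slope, and its 95% interval of −0.40 to 0.0003 reached just past 0.

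Genes around the pathway were counted in 7 lists of related genes. The lists were drawn up with earlier results of these data known, so their counts are descriptions. Among enzymes of carnitine entry and acyl-CoA activation, 14 genes were tested. Under phenformin Cpt1c, the brain-type relative of Cpt1a, was higher in PGC-1alpha metastases by 0.48 (limma, adjusted p = 0.00691), and Fabp4, a fatty acid binding protein of adipocytes, macrophages and endothelium, fell by 1.31 (limma, adjusted p = 0.00939). Of 6 measured adipocyte markers 3, among them Adipoq, were too dim to be tested. The 3 tested ones were above 0 under phenformin (Plin1 0.37, limma adjusted p = 0.0182; Cidec 0.33, limma adjusted p = 0.165; Retn 0.10, limma adjusted p = 0.733), opposite in sign to Fabp4. Of 11 endothelial markers tested under phenformin, 1 was above 0 and 1 passed as lower. Of 10 macrophage markers, 2 were above 0 and 2 passed as lower. Which cells gave the Fabp4 difference was not tested. The other 12 genes of the list of carnitine entry and activation did not pass, and 0 of its 14 passed under PBS. The shares over all tested genes were 10.0% higher and 11.1% lower under phenformin, and 2.93% in either direction under PBS.

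Of 21 other mitochondrial enzymes tested, 3 were higher and 2 lower under phenformin, close to the 10.0% and 11.1% of all tested genes. Acadsb, which acts on branched short chains, was higher by 0.44 (limma, adjusted p = 0.0145) and Acot2, a mitochondrial acyl-CoA thioesterase, by 0.51 (limma, adjusted p = 0.0148). Pcca, a subunit of propionyl-CoA carboxylase, fell by 0.80 (limma, adjusted p = 0.0152), and Acot9, another thioesterase, by 0.51 (limma, adjusted p = 0.0213). Under PBS Pcca alone passed, at −0.82 (limma, adjusted p = 0.0425). In the average of treatments 2 were higher and 4 lower, beside 24.6% of all tested genes in either direction; the lower ones included Mmut, methylmalonyl-CoA mutase, which follows Pcca on the propionate route, at −0.40 (limma, adjusted p = 0.0184). Etfdh had −0.34 (SE 0.30, limma adjusted p = 0.423) under phenformin. Of 18 peroxisomal genes tested, 0 passed under PBS and 2 were lower under phenformin, again beside 11.1% of all tested genes: Crot, the carnitine octanoyltransferase, at −0.44 (limma, adjusted p = 0.0233), and Phyh, phytanoyl-CoA hydroxylase, at −0.44 (limma, adjusted p = 0.0239). Of 3 ketone body enzymes tested, 0 passed under either treatment. Oxct1, which activates acetoacetate, was lower in the average at −0.33 (limma, adjusted p = 0.00537), where 13.3% of all tested genes were lower.

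**Figure D4:**
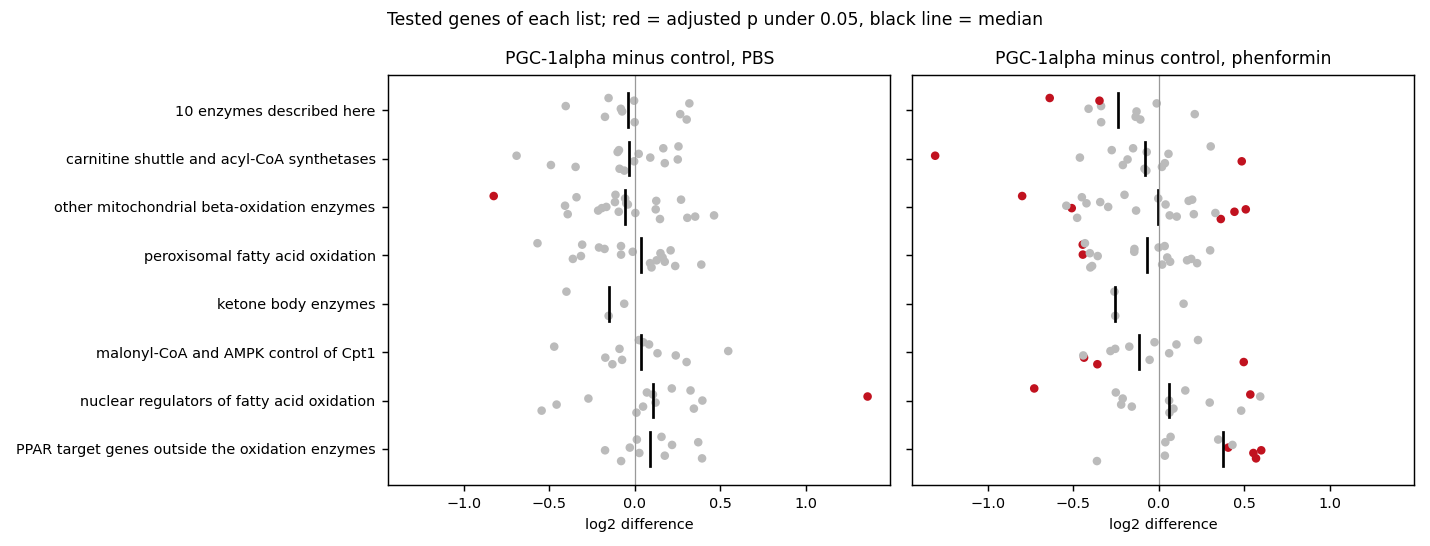
Log2 differences between the lines (horizontal axis) for each tested gene of the members and of the pathway lists, with the median as a black line and genes with an adjusted p under 0.05 in red. The list labelled as PPAR targets outside the oxidation enzymes, which also holds Cpt1b, has its median at 0.38 under phenformin. The members have theirs at −0.24. The lists are not matched for signal.

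Malonyl-CoA, made by acetyl-CoA carboxylase, inhibits CPT1. Under phenformin Acacb, the carboxylase isoform at the mitochondrion, was higher by 0.50 (limma, adjusted p = 0.0063), while Acaca, the cytosolic isoform, fell by 0.36 (limma, adjusted p = 0.0187), and Prkaa1, a catalytic subunit of AMPK, fell by 0.44 (limma, adjusted p = 0.0111). Of the 12 genes 1 was thus higher and 2 lower, beside 10.0% and 11.1% of all tested genes. The other 9 did not pass, and 0 of 12 passed under PBS, beside 2.93% of all. Of 13 nuclear regulators tested, Ppargc1a alone passed under PBS. Under phenformin the Ppargc1a difference was 0.59 (SE 0.31, limma adjusted p = 0.166), Ppargc1b, which encodes the related coactivator PGC-1beta, was higher by 0.53 (limma, adjusted p = 0.018), and Rxrb, a partner of PPARs, fell by 0.73 (limma, adjusted p = 0.0245). This 1 higher and 1 lower of 13 stood beside the same 10.0% and 11.1% of all tested genes. In the average of treatments 3 regulators were higher: Ppargc1a by 0.98 (limma, adjusted p = 0.00321), Ppargc1b by 0.32 (limma, adjusted p = 0.0327) and Rxra, another PPAR partner, by 0.24 (limma, adjusted p = 0.0373). There 24.6% of all tested genes passed in either direction. Ppara was too dim to be tested, with group means between 4.62 and 4.76, and Esrra was not analysed here.

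PPAR targets outside the members had 0 of 10 passed under PBS and 4 higher and 0 lower under phenformin, beside 10.0% of all tested genes higher. This list held Cpt1b, a relative of Cpt1a that was also counted in the list of carnitine entry and did not pass. Angptl4, a secreted inhibitor of lipoprotein lipase, was higher by 0.57 (limma, adjusted p = 0.0136), and Creb3l3, a transcription factor of lipid metabolism, by 0.55 (limma, adjusted p = 0.019). Fgf21, a secreted metabolic regulator, was higher by 0.60 (limma, adjusted p = 0.021), and Lpl, lipoprotein lipase itself, by 0.41 (limma, adjusted p = 0.0351). Pdk4, which restrains pyruvate oxidation, had 0.22 (limma, adjusted p = 0.498) under PBS and 0.43 (limma, adjusted p = 0.0526) under phenformin, and was higher in the average by 0.32 (limma, adjusted p = 0.036). The list's median under phenformin was 0.38, while that of all tested genes was 0.003. These shares vary with signal: among genes in the members' signal range 6.04% passed as higher and 18.2% as lower. The list was not compared with genes of its own signal, nor followed after renormalisation, so its contrast with the members was not tested. No gene of the 7 lists passed for phenformin in either line, for the interaction or for the slope on Ppargc1a.

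The members varied loosely together. After group means were subtracted, 30 of the 45 pairs of members had a Pearson correlation above 0 over the 22 arrays, with a median of 0.11, where all pairs of tested genes had a median of 0.003. The pairs ran from −0.48 (Cpt2 and Acadl) to 0.54 (Acadm and Hadha), and Hadha and Etfa had 0.52. The arrays share 1 normalisation, and these values are descriptions. The genes most like the members' mean profile over the 22 arrays were Wars, a tryptophanyl-tRNA synthetase (r = 0.84, rho = 0.78), Atp5c1, a subunit of ATP synthase (r = 0.81, rho = 0.79), Bet1l (r = 0.80, rho = 0.75), Serf1 (r = 0.79, rho = 0.81) and Pop4 (r = 0.79, rho = 0.80). Ppargc1a had r = 0.03 with that profile and ranked 7487 of 15535 genes, and Pdk4 had r = 0.28 and ranked 2916.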

How the data were processed

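RNA of laser-captured lung metastases (10 ng per sample, per the labels' protocols) was measured on 22 microarrays. The deposited table holds log2 signals that the authors had normalised, a single value for every probe set of an array. The submitters' processing notes name oligo as a tool. Which version was run, how background was corrected and arrays normalised, and the genome build are not given in the sources used here. Another deposited table was not used, since its 22 columns could not be matched to samples. Probe sets with 1 symbol in the platform annotation (19572 of 28815) were kept, the brightest per symbol (55 genes had several). Genes exceeding the 25th percentile of an array on 5 or more arrays were tested (15545).

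Group means were fitted with limma 3.58.1 (R 4.3.3) on all 22 arrays, with no covariate (18 residual degrees of freedom). Tests were two-sided and Benjamini-Hochberg adjusted over all tested genes; a gene passed at an adjusted p under 0.05. The fit was also run on simulated data with independent noise for each gene, and no result here rests on that run. Figures used Python 3.11.15 and matplotlib 3.10.9. The number of arrays limits the precision. In each comparison all 10 members are named; of each pathway list, at most 4 genes with the smallest adjusted p among those that passed, with Ppargc1a, Ppara, Esrra and Pdk4 in any case; Etfdh and the single markers named were added after their values were seen. The 5 genes most like the members follow from the correlation with their mean profile. The lung and immune scores average the z-scored markers of lung cells and of immune cells. The members and lists were chosen with earlier results of these data known. Promoter windows are those of RefSeq (GRCm38.p6). Alternatives changed the filter, scaling, probe set rule, samples, prior, weights, covariates and replicate block, or left out each array.

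The groups share replicate numbers, but the labels do not say that a number marks a shared animal or batch. Of 31 same-numbered pairs, 7 had a correlation of deviations over 0.1, and the correlations ran from −0.19 to 0.31. Between the PGC-1alpha groups all 6 were above 0 and 4 over 0.1. No pair of groups had every correlation over 0.1, so the numbers were not used as a block.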

Additional observations from a re-analysis of the deposited data

Results flagged for a closer look

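Hadh in PGC-1alpha phenformin array 4 was 8.89, far from the other arrays of its group, whose nearest was 9.32 and whose mean was 9.43. Without this array the averaged line difference of Hadh was 0.20 (limma, adjusted p = 0.0488), against 0.15 (limma, adjusted p = 0.165) with it. Etfa in control PBS array 5 was 10.34, above the nearest array of its group at 9.78 and the mean of the others at 9.67. The averaged Etfa difference was −0.30 without it. In all, 40 groups of arrays were examined (10 genes in 4 groups) and 2 had such an array, while chance gives about 1 in 20.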

How the results depend on the processing

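All 80 member values were recomputed under 12 settings and 22 fits that each left out 1 array, which gave 2680 comparisons. Of these, 2626 kept their side of the threshold, 28 came to pass, 26 ceased to pass and 0 that passed turned direction. Only 2 values between the lines under phenformin and 2 in their average passed as reported, and the 26 all fell among refits of those. For phenformin itself, the interaction and the slope, no tested gene passed as reported, so values there had little room to change side. Among the 2626, 105 changed sign, all of them values that passed in neither fit. Members that passed between the lines under phenformin numbered 2, against 1 with no filter, 1 with quantile normalisation, 1 with cyclic loess, 5 with arrays centred on their median, 4 with a trended robust prior and 0 with the immune score. Leaving out 1 array gave 1 to 4 (4 without control PBS 5; 1 without PGC-1alpha phenformin 3, 5 or 6, PGC-1alpha PBS 1, 2, 3, 4 or 5, or control phenformin 2 or 5). In the average the count of 2 became 4 with quantiles and 4 with cyclic loess (Acadvl and Hadh added, both higher), 1 with the lung score, 0 with the immune score and 2 to 4 without 1 array (4 without control PBS 1). Hadhb under phenformin kept its call in 22 of 22 such fits (−0.72 to −0.55). Hadha, at −0.40 to −0.30 over the 22, lost it in 15, with quantiles (−0.20) and with cyclic loess (−0.22). With the replicate number as a block 2 passed under phenformin, Hadhb and Cpt2 (−0.44), and Hadha did not (limma, adjusted p = 0.0638). Over all genes, the 455 calls under PBS became 237 with only those groups fitted, 41 with the lung score, 47 with the immune score and 191 without control PBS 5. The 3283 under phenformin became 2122 and 847 with the scores and 2189 without PGC-1alpha phenformin 2, and the 3831 in the average 1166 and 729 with the scores. The cause of these moves was not tested. A fit of only the groups compared does not exist for averages, interaction or slope.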
